A study of Canis lupus familiaris with 6 samples.

Results

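Collagen chain genes were examined in CMM10, a cell line grown from a malignant melanoma of a dog, by RNA sequencing of 3 libraries from cells kept under hypoxia and 3 from cells kept under normoxia. A gene counted as a collagen chain gene when its name in the deposited tables was COL, a type number, A and a chain number. This rule took 42 of 29822 genes, on 21 chromosomes of the CanFam3.1 build: 11 fibrillar, 7 basement membrane, 4 transmembrane and 20 of other types. The labels give no oxygen level, no duration of hypoxia and no genotype, and all 6 libraries come from a single line, so nothing here extends to other melanomas. The labels do not say whether replicates were separate cultures, so p-values measure the spread between these libraries, which may be technical. No row carried the symbol COL6A2 or COL18A1, and these chains were not analysed here.

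Collagens are extracellular proteins whose alpha chains wind into trimers of a long triple helix. Fibrillar collagens, led by type I, form the tensile fibres of connective tissue. Type IV collagen forms the sheet of basement membranes, and transmembrane collagens stay anchored in the cell surface. The remaining types decorate fibrils (the FACIT collagens), build beaded filaments (type VI), anchoring fibrils (type VII) or short-chain networks (types VIII and X). Chains are hydroxylated in the endoplasmic reticulum by enzymes that need oxygen before they are exported, trimmed and crosslinked. Melanoma cells can deposit collagens themselves, and some of the enzymes that modify the chains are known targets of hypoxia-inducible factors.

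The libraries held 27272709 to 28804337 gene reads under hypoxia and 23196647 to 27012866 under normoxia. The labels were checked with CA9, a known hypoxia target, which was at 404 to 413 CPM (reads scaled to library size, after TMM) under hypoxia and 29.0 to 31.0 CPM under normoxia. VEGFA was at 678 to 748 CPM under hypoxia and 198 to 213 CPM under normoxia, and SLC2A1 at 607 to 642 CPM under hypoxia and 107 to 117 CPM under normoxia. Of 14 melanocyte markers with a row, 12 were expressed above the count filter, and their summed level was 223 to 235 TPM (a level scaled to transcript length and library) under hypoxia and 207 to 219 TPM under normoxia. The pigment enzyme gene TYR was listed at 0 TPM in every library, and TYRP1 averaged 0.02 TPM in both groups. MLANA, S100B and PMEL were low, with group means of up to 1.76 TPM, while SOX10, MITF and DCT were present. Melanocyte markers went both ways by edgeR. SOX10 (log2 fold change 0.40) and SLC45A2 (0.48) were called higher under hypoxia, and DCT (-0.23) and OCA2 (-0.42) lower. Of 12 fibroblast markers 6 passed the filter, and the summed level was 271 to 279 TPM under hypoxia and 221 to 238 TPM under normoxia. THY1 made up most of that sum, and FAP and DPT were listed at 0 TPM in every library. By edgeR, THY1 was higher under hypoxia (log2 fold change 0.33, adjusted p = 6.16e-08), and FBLN1 was lower (-0.14, adjusted p = 0.0231). PDGFRA was higher at a low level, with means of 2.40 TPM under hypoxia and 0.54 TPM under normoxia (2.01, adjusted p = 1.44e-10 by edgeR). Keratinocyte markers went both ways, and the 4 with a row summed to 1044 to 1206 TPM under hypoxia and 363 to 375 TPM under normoxia. KRT14 drove this sum, with means of 949 TPM under hypoxia and 193 TPM under normoxia, and CDH1 was higher too (137 and 101 TPM). KRT10 was lower under hypoxia (52.6 and 75.2 TPM, adjusted p = 4.47e-09 by edgeR). TP63 gene reads were higher (log2 fold change 0.46), but its TPM was lower (0.32 and 0.85 TPM). The 7 endothelial markers summed to 7.19 to 7.85 TPM under hypoxia and 5.31 to 6.49 TPM under normoxia, with PECAM1 at 0 TPM in every hypoxia library. At low levels, VWF (log2 fold change 1.44, adjusted p = 7.38e-12 by edgeR) and TEK (0.67, adjusted p = 0.00249 by edgeR) were higher under hypoxia. KDR (0.11), CDH5 (0.86) and ERG (-0.17) did not pass edgeR's test. The 6 smooth muscle and pericyte markers summed to 40.3 to 44.1 TPM under hypoxia and 33.8 to 37.1 TPM under normoxia, most of it from CSPG4, with RGS5 at 0 TPM throughout. The 5 leucocyte markers with a row summed to less than 1 TPM in every library. The part of these markers in the collagen results was not tested. In bulk libraries, fewer cells of a kind and less RNA per cell cannot be told apart.

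Gene reads of many collagen chains, introns included, were higher under hypoxia, and no chain was called lower. Of the 42 genes, 36 passed the filter on low counts, and 35 of these exceeded its cutoff in all 6 libraries, so that none was tested only because of the condition in which it was high. Tests used edgeR (quasi-likelihood), with p-values adjusted over all 15397 tested genes after Benjamini and Hochberg and a threshold of 0.05. Of the 36 tested chains, 17 were higher under hypoxia, and 0 were lower. At an unadjusted p under 0.05, 0 were lower too, as was the case with DESeq2. Among all tested genes 24.5% were called higher and 24.4% lower, 49.0% in all. The chains were thus called about as often as genes at large, 47.2% of them, but in 1 direction only. Of the 25 chains with a mean of at least 1 TPM, 16 were called higher (64.0%), where the background among genes of at least 1 TPM was 26.0% higher and 29.0% lower. The median log2 fold change of hypoxia over normoxia was 0.26 over the 36 tested chains, against 9.6e-04 over all tested genes. A rise of over 2-fold was called in 3 chains, COL8A2, COL27A1 and COL2A1, and in 4.81% of all tested genes. CPM values of hypoxia lay wholly above those of normoxia for 17 chains (background 27.8%) and wholly below for 0 (background 27.5%).

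**Figure D1:**
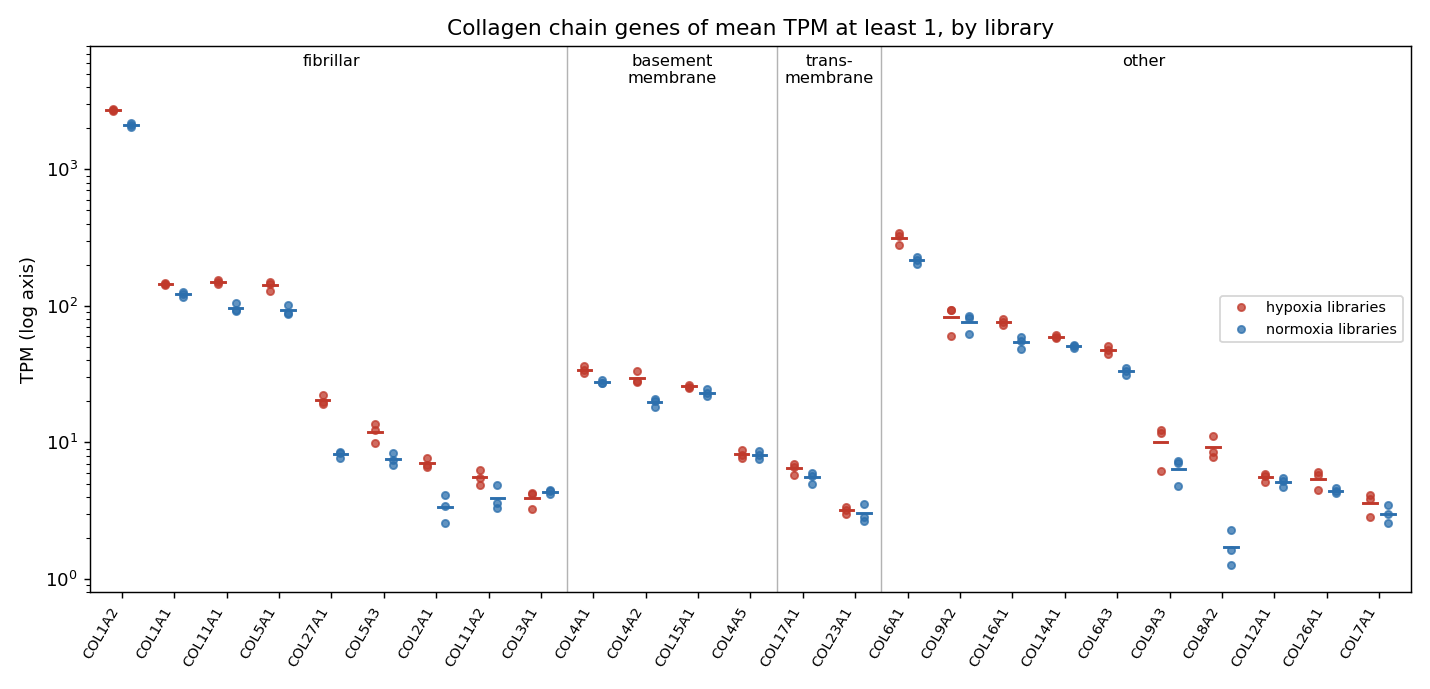
Level of the 25 collagen chain genes with a mean of at least 1 TPM, grouped by type; each point is 1 library (hypoxia left, normoxia right), bars are means of 3 libraries, and the vertical axis is logarithmic. COL1A2 stands above all other chains in both conditions, and COL8A2 and COL27A1 show the widest gaps between conditions.

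Fibrillar chains made up most of the collagen mRNA, and 8 of 11 were higher under hypoxia (72.7%, against 24.5% of all tested genes). COL1A2 (chromosome 14, 19883868 to 19919527), the alpha 2 chain of type I collagen, was the highest of all chains, at 2739, 2777 and 2688 TPM in hypoxia replicates 1, 2 and 3 and at 2173, 2053 and 2099 TPM in normoxia replicates 1, 2 and 3. The groups did not overlap, and the change was modest but well outside the replicate spread (log2 fold change 0.40 ± 0.032 SE, 1.32-fold, adjusted p = 4.80e-12 by edgeR). COL1A1 (chromosome 9, 26183852 to 26199927), the alpha 1 chain, reached 145, 148 and 143 TPM under hypoxia and 126, 116 and 123 TPM under normoxia. It too rose without overlap (0.28 ± 0.036, adjusted p = 1.01e-07 by edgeR).

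Types V and XI collagen initiate fibrils and limit their width. Of their 5 chains, COL5A1, COL5A3, COL11A1 and COL11A2 rose, and COL5A2 was near silent (0.02 ± 0.21). COL5A1 (chromosome 9, 50770277 to 50854728), the main chain of type V collagen, which nucleates type I fibrils, stood at 144, 150 and 129 TPM under hypoxia and at 87.9, 89.1 and 101 TPM under normoxia (0.65 ± 0.049, adjusted p = 2.22e-08 by edgeR). COL11A1 (chromosome 6, 47425307 to 47621012), of the related type XI collagen, had 154, 150 and 144 TPM under hypoxia and 93.6, 91.9 and 104 TPM under normoxia (0.66 ± 0.037, adjusted p = 4.67e-16 by edgeR). All hypoxia libraries were above all normoxia libraries for both chains. Lower in level, COL5A3 had 13.6, 12.3 and 9.89 TPM under hypoxia and 7.39, 8.32 and 6.86 TPM under normoxia (0.68 ± 0.097). COL11A2 had 5.53, 6.23 and 4.87 TPM under hypoxia and 3.57, 3.33 and 4.85 TPM under normoxia (0.59 ± 0.11), where hypoxia replicate 3 and normoxia replicate 3 nearly met. Both passed edgeR's test, with adjusted p-values of 1.76e-05 for COL5A3 and 1.20e-04 for COL11A2.

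The largest fibrillar rises were in COL27A1 and COL2A1. COL27A1 (chromosome 11, 68420263 to 68546947), a minor fibrillar chain best known from cartilage, reached 19.2, 22.3 and 19.7 TPM under hypoxia and 7.66, 8.37 and 8.49 TPM under normoxia. Its level was 2.50-fold higher (1.32 ± 0.055, adjusted p = 2.00e-19 by edgeR), the most significant change of the family, and 57.9% of its reads lay in introns. The deposited COL27A1 model holds 19 exons over 126685 bases, against 58 exons for COL5A1. Whether some of the COL27A1 intron reads lie in exons missing from the model was not tested. COL2A1 (chromosome 27, 6756994 to 6787733), the main collagen of cartilage, was at 6.62, 7.72 and 6.88 TPM under hypoxia and 2.59, 3.40 and 4.13 TPM under normoxia (1.11 ± 0.13, adjusted p = 7.72e-08 by edgeR). The normoxia libraries of COL2A1 were widely spread, but all lay below the lowest hypoxia library. COL3A1, which forms the type III fibrils of skin and vessels, was low and did not pass edgeR's test, with 4.19, 4.26 and 3.27 TPM under hypoxia and 4.49, 4.16 and 4.39 TPM under normoxia (-0.10 ± 0.11, adjusted p = 0.503). The remaining fibrillar genes, COL5A2 and COL24A1, were near silent.

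**Figure D2:**
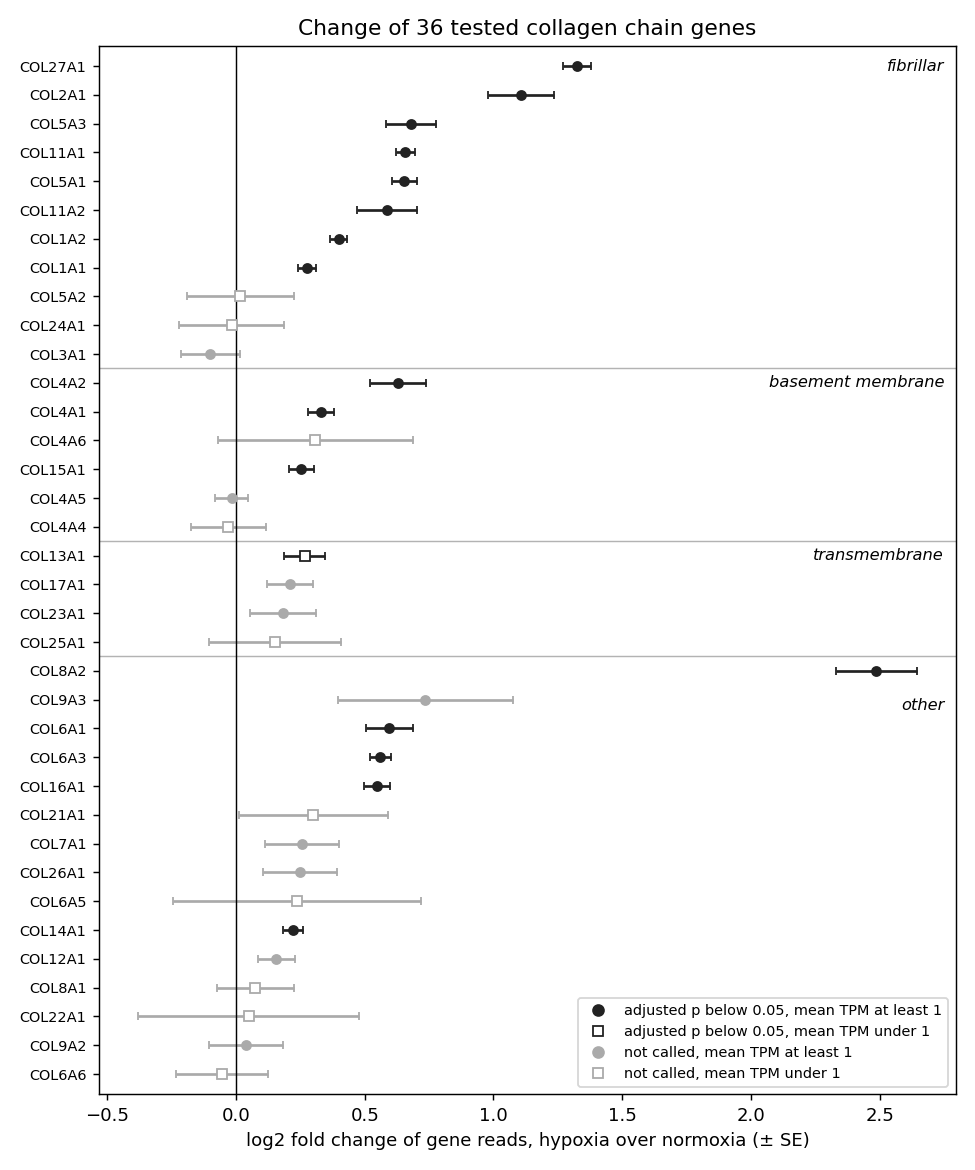
Log2 fold change of gene reads, hypoxia over normoxia, with its SE for the 36 tested collagen chain genes, sorted within each type; dark symbols passed edgeR's test at an adjusted p of 0.05, and open squares have a mean under 1 TPM. The 17 called genes all lie to the right of 0, from 0.22 (COL14A1) to 2.49 (COL8A2).

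Of 7 basement membrane genes, 6 were tested and 3 were higher under hypoxia (50%, against 24.5% of all tested genes). COL4A1 (chromosome 22, 58512212 to 58588666), a chain of the type IV network found in nearly all basement membranes, had 36.2, 34.0 and 32.1 TPM under hypoxia and 27.2, 27.3 and 28.6 TPM under normoxia (0.33 ± 0.049, adjusted p = 1.15e-06 by edgeR). COL4A2 (chromosome 22, 58697175 to 58773297), its partner chain, had 33.2, 27.6 and 28.1 TPM under hypoxia and 20.6, 20.2 and 18.1 TPM under normoxia (0.63 ± 0.11, adjusted p = 1.48e-05 by edgeR). Neither chain's groups overlapped. The deposited COL4A2 model holds 15 exons and 987 bases of exon, against 50 exons and 5033 bases for COL4A1, so its level rests on far fewer reads (1821 against 11259 over the 6 libraries). COL15A1, a multiplexin at the outer face of basement membranes, had 26.2, 25.7 and 25.2 TPM under hypoxia and 24.5, 21.9 and 23.0 TPM under normoxia (0.25 ± 0.049, adjusted p = 5.80e-05 by edgeR). On the TPM scale this gap was small, and COL15A1 did not pass limma on log2 TPM values (adjusted p = 0.0719 with a pseudocount of 0.5).

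The X-linked chain COL4A5, which pairs with COL4A3 and COL4A4 in the filtration barrier of the kidney, was not called. Its values were 7.69, 8.04 and 8.84 TPM under hypoxia and 8.03, 8.68 and 7.60 TPM under normoxia, with the groups fully interleaved (-0.02 ± 0.065, adjusted p = 0.856 by edgeR). COL4A4 and COL4A6 were under 1 TPM and were not called, and COL4A3 fell below the filter.

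Of 4 transmembrane genes, all tested, 1 was called higher (25%, near the 24.5% of all tested genes). COL17A1, a component of the hemidesmosomes by which epithelial cells grip the basement membrane, had 6.62, 6.91 and 5.81 TPM under hypoxia and 5.96, 4.99 and 5.71 TPM under normoxia. The groups overlapped, and the change of 0.21 ± 0.091 missed the threshold (adjusted p = 0.0545 by edgeR). It passed without hypoxia replicate 3 (0.30, adjusted p = 0.00716 by edgeR), without normoxia replicate 1 (adjusted p = 0.0475 by edgeR), in the fit of exon reads (0.25, adjusted p = 0.0247 by edgeR) and in that of unique reads (adjusted p = 0.0473 by edgeR). Without hypoxia replicate 2 it was 0.13 (adjusted p = 0.301 by edgeR), and without normoxia replicate 2 it was 0.15 (adjusted p = 0.238 by edgeR). COL23A1 had 3.19, 3.39 and 2.98 TPM under hypoxia and 2.65, 2.85 and 3.56 TPM under normoxia (0.18 ± 0.13, adjusted p = 0.254 by edgeR), with the highest value of all in a normoxia library.

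COL13A1, a transmembrane collagen of the neuromuscular junction, was the only called chain under 1 TPM, and its reads came almost wholly from introns. Gene reads of COL13A1 were 680, 622 and 602 under hypoxia and 485, 497 and 506 under normoxia (0.27 ± 0.079, adjusted p = 0.00557 by edgeR), and 96.0% of them were intron reads. Exon reads were 26, 15 and 12 under hypoxia and 30, 32 and 20 under normoxia. The exon reads thus leaned the other way (-0.70 ± 0.37, adjusted p = 0.124 by edgeR), while the intron reads alone rose by 0.32 ± 0.083 (adjusted p = 0.00133 by edgeR). The call for COL13A1 thus rests on intron reads. COL25A1, made mainly by neurons, had 12503 reads over all libraries, of which 99.8% were in introns and 61.7% were uniquely mapped, and only 28 in exons. Its gene reads were 2316, 2319 and 2141 under hypoxia and 1287, 2337 and 2103 under normoxia, with normoxia replicate 1 apart from the rest (0.15 ± 0.26, adjusted p = 0.685 by edgeR). From uniquely mapped reads alone, COL25A1 was called lower (-0.13 ± 0.055, adjusted p = 0.0478 by edgeR), and without normoxia replicate 1 its value was -0.08 (adjusted p = 0.238 by edgeR). Its model overlaps an unnamed model over 378 bases, and the part of such overlaps was not tested.

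Among the other types, 15 of 20 genes were tested and 5 were higher under hypoxia (33.3%, against 24.5% of all tested genes). COL8A2 (chromosome 15, 6095728 to 6115538), a short-chain collagen of the network beneath the corneal endothelium and of vessel walls, showed the widest change of the family. It had 8.54, 11.2 and 7.84 TPM under hypoxia and 1.63, 1.26 and 2.27 TPM under normoxia. The lowest hypoxia library was above 3 times the highest normoxia library, and the change was 5.61-fold (2.49 ± 0.16, adjusted p = 2.90e-11 by edgeR), from 1503 reads under hypoxia and 251 under normoxia. COL8A1, the other type VIII chain, was under 1 TPM in every library and did not pass the test (0.07 ± 0.15, adjusted p = 0.719 by edgeR).

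Type VI collagen forms beaded filaments around cells. Of its 4 analysed chains, 2 were higher under hypoxia, COL6A1 and COL6A3 (50%, against 24.5% of all tested genes). COL6A1 (chromosome 31, 39301748 to 39448062) was second in level only to COL1A2, at 323, 339 and 277 TPM under hypoxia and 201, 215 and 229 TPM under normoxia. Its change of 0.59 ± 0.091 passed the test (adjusted p = 0.00419 by edgeR), hypoxia replicate 3 being the lowest of its group. The COL6A1 model spans 146315 bases with 59 exons and lies wholly within the opposite-strand model of FTCD. In the RefSeq gene table of another dog assembly, UU_Cfam_GSD_1.0, the gene COL6A2 lies between COL6A1 and FTCD. Whether the deposited COL6A1 model also takes COL6A2 exons was not tested. None of its intron reads was uniquely mapped, whereas all of its exon reads were. COL6A3 (chromosome 25, 47971315 to 48052402), the longest chain of the filament, had 44.5, 50.6 and 47.2 TPM under hypoxia and 33.1, 31.0 and 35.1 TPM under normoxia (0.56 ± 0.041, adjusted p = 1.05e-12 by edgeR). COL6A5 and COL6A6 were under 1 TPM and not called.

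Of 10 FACIT collagen genes, whose products sit on the surface of fibrils, 7 were tested and 2 were higher. This share, 28.6%, was near the 24.5% of all tested genes. COL16A1 (chromosome 2, 69410155 to 69459335) had 76.0, 79.9 and 71.9 TPM under hypoxia and 48.0, 55.7 and 58.8 TPM under normoxia (0.55 ± 0.050, adjusted p = 2.11e-08 by edgeR). COL14A1 (chromosome 13, 19011897 to 19248568), which binds type I fibrils, had 59.2, 58.3 and 60.7 TPM under hypoxia and 51.7, 49.2 and 50.8 TPM under normoxia (0.22 ± 0.038, adjusted p = 9.22e-06 by edgeR), the smallest change among the called chains. COL12A1, its close relative, had 5.11, 5.69 and 5.84 TPM under hypoxia and 4.72, 5.50 and 5.20 TPM under normoxia. Its groups overlapped (0.16 ± 0.072, adjusted p = 0.0738 by edgeR), and it passed only without normoxia replicate 2 (0.23, adjusted p = 0.0176 by edgeR). Without normoxia replicate 1 its value was 0.09 (adjusted p = 0.375 by edgeR).

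Type IX collagen, a FACIT that coats cartilage fibrils, spread widely among the libraries of both conditions. COL9A2 (chromosome 15, 2646982 to 2661552) was abundant, at 92.9, 93.8 and 60.5 TPM under hypoxia and 62.1, 81.4 and 84.1 TPM under normoxia (0.04 ± 0.14, adjusted p = 0.858 by edgeR). COL9A3 had 12.2, 11.7 and 6.20 TPM under hypoxia and 4.77, 7.02 and 7.35 TPM under normoxia (0.73 ± 0.34, adjusted p = 0.130 by edgeR). For both chains hypoxia replicate 3 was the lowest of its group and normoxia replicate 1 the lowest of the other. Without hypoxia replicate 3, COL9A3 was called higher (1.00, adjusted p = 4.58e-06 by edgeR), and also with no filter on low counts (0.73, adjusted p = 3.38e-05 by edgeR). Without hypoxia replicate 1 the value of COL9A3 was 0.50 (adjusted p = 0.181 by edgeR). COL9A2 was called under none of these. Of the 25 chains of at least 1 TPM, 17 had their lowest hypoxia value in replicate 3. The lowest normoxia value was in replicate 1 for 11 chains, in replicate 2 for 10 and in replicate 3 for 4. Such counts were not made over all genes. Leaving out both hypoxia replicate 3 and normoxia replicate 1 was an alternative chosen after seeing the data. In that fit 20 chains were called higher and 0 lower, and all 17 calls of the full comparison were among them. Among all genes, 50.5% of the calls in that fit were higher.

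**Figure D3:**
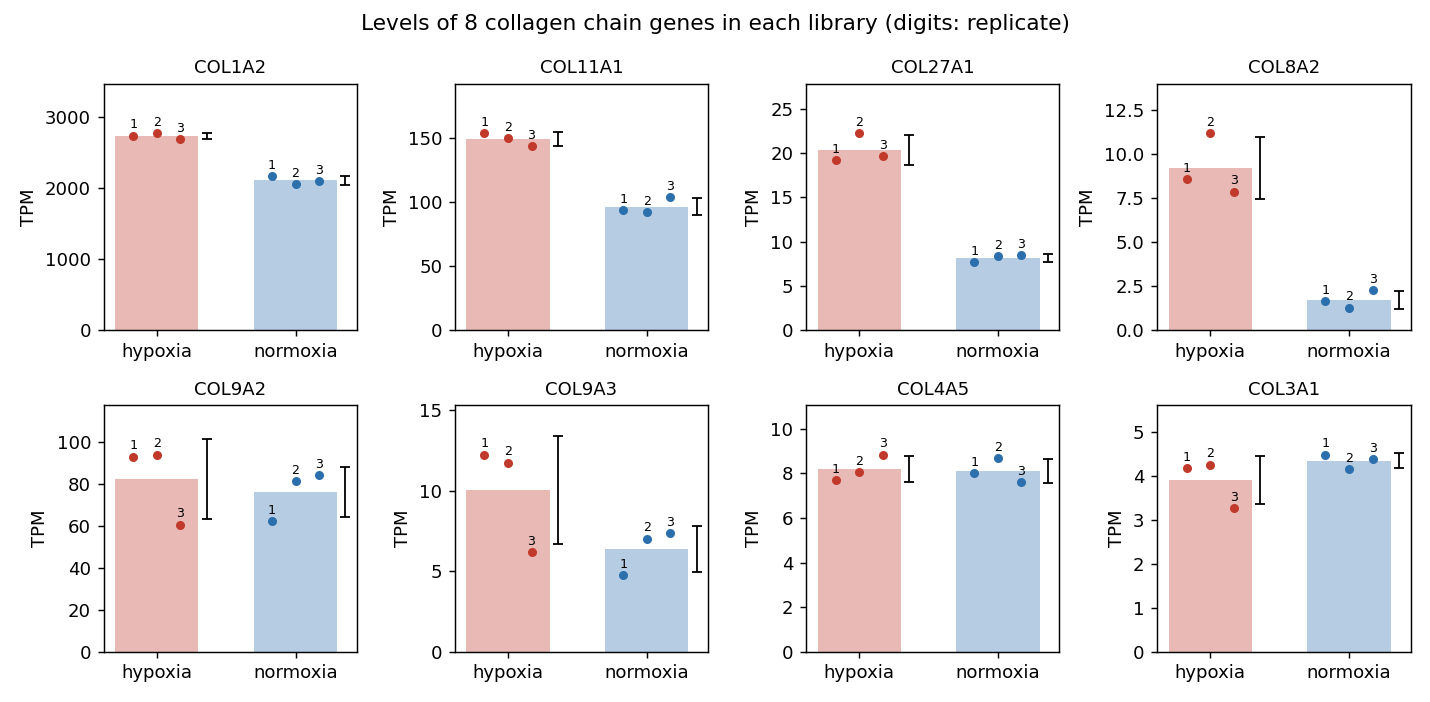
TPM of 8 collagen chain genes in each library (points, with the replicate number), with the group mean (bar) and SD of 3 libraries (bracket beside the bar). In the upper row the hypoxia and normoxia libraries are apart, while in the lower row they overlap, and the low points of COL9A2 and COL9A3 come from hypoxia replicate 3 and normoxia replicate 1.

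COL7A1, which forms the anchoring fibrils beneath the epidermis, had 3.84, 4.13 and 2.85 TPM under hypoxia and 2.56, 3.02 and 3.48 TPM under normoxia (0.26 ± 0.14, adjusted p = 0.176 by edgeR). Here too hypoxia replicate 3 overlapped normoxia, and without it COL7A1 was called higher (0.40, adjusted p = 3.40e-04 by edgeR). Without hypoxia replicate 2 the value was 0.14 (adjusted p = 0.400 by edgeR), and without normoxia replicate 1 it was 0.17 (adjusted p = 0.368 by edgeR). It was also called with no filter on low counts (0.25, adjusted p = 0.00883 by edgeR). One end of the COL7A1 model overlaps that of the respiratory chain gene UQCRC1. COL26A1, a collagen first found in testis and ovary, had 4.45, 5.81 and 6.04 TPM under hypoxia and 4.39, 4.66 and 4.27 TPM under normoxia, and the groups overlapped in 1 hypoxia library (0.25 ± 0.14, adjusted p = 0.156 by edgeR).

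A group of 17 chain genes averaged under 1 TPM, and 6 of them were below the filter: COL10A1, COL28A1, COL9A1, COL4A3, COL19A1 and COL20A1, with 16 to 48 reads each over all 6 libraries. The 11 tested ones had log2 changes between -0.05 and 0.31, and only COL13A1 was called (1 of 11, or 9.09%). Among all tested genes 24.5% were called higher. The share among genes under 1 TPM alone was not computed, so the count shows nothing particular to these chains. More than 90% of the reads lay in introns for 5 chains, COL25A1, COL13A1, COL6A6, COL5A2 and COL4A4. COL5A2, which partners COL5A1 in most type V collagen, had 29 exon reads and 2 exon-exon reads over all libraries. Spliced COL5A2 mRNA was thus close to undetected while COL5A1 stood at 87.9 TPM or more in every library. COL8A1 had 120 exon reads but no read across an exon junction, although its model has 4 exons. COL10A1, a marker of hypertrophic cartilage, had 16 reads and lies within the models of PHF10 and NT5DC1.

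Exon and intron reads were then fitted separately. Exon reads report mostly on mature mRNA and intron reads mostly on unspliced transcripts, although intron reads can also come from other transcripts of the region, and the kit named in the labels does not mark strand. Of 30 chain genes in both fits, 11 were higher in both, 6 in exon reads only and 1, COL13A1, in intron reads only, by edgeR in each fit. The 6 were COL1A1, COL4A1, COL4A2, COL5A3, COL14A1 and COL17A1. COL4A1 (exon 0.34, intron 0.39) and COL4A2 (0.62 and 0.81) had the larger change in introns, but on 566 and 137 intron reads. COL1A1, COL5A3, COL14A1 and COL17A1 had the larger change in exons. Among all genes tested, 24.4% were called higher and 23.8% lower from exon reads, and 18.7% higher and 15.7% lower from intron reads, while 0 chains were called lower in either fit. Whether exon and intron changes differed was not tested. COL8A2 rose by 2.47 ± 0.17 in exon reads and 2.73 ± 0.36 in intron reads, and COL27A1 by 1.35 ± 0.073 and 1.32 ± 0.069. In COL15A1 the exon change was 0.19 ± 0.052 and the intron change 0.76 ± 0.12, and in COL6A1 they were 0.58 ± 0.096 and 1.04 ± 0.065. The COL6A1 intron reads, none of them uniquely mapped, lie within the FTCD model, and their origin was not tested. COL14A1 had opposite signs, 0.27 ± 0.038 in exon reads and -0.22 ± 0.11 in intron reads, of which only the exon value passed edgeR's test (adjusted p of the intron value = 0.104).

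**Figure D4:**
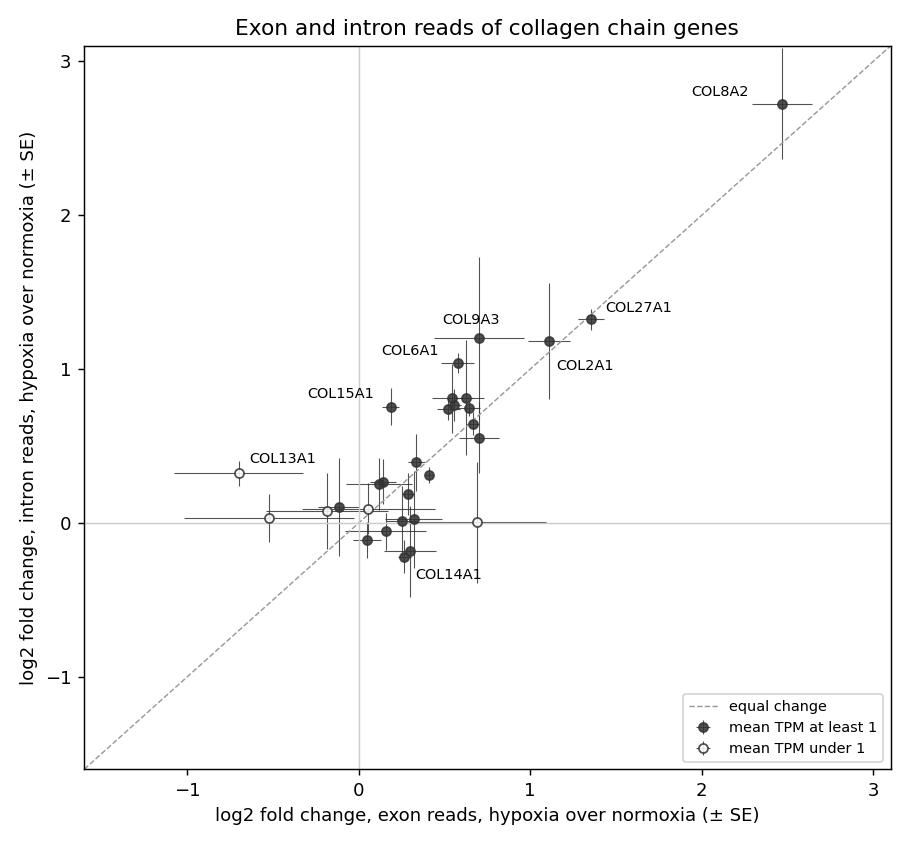
Log2 fold change of hypoxia over normoxia from exon reads (horizontal axis) and from intron reads (vertical axis) for the 30 collagen chain genes in both fits, with SEs; open points have a mean under 1 TPM and the dashed line marks equal change. COL8A2 and COL27A1 lie near the line, COL15A1 and COL6A1 above it, and COL13A1 has a negative exon and a positive intron change.

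The balance between chains of one collagen type was compared within each library as a ratio of TPM values, for the 3 of 7 listed pairs in which both chains averaged at least 1 TPM. With 3 libraries against 3, a two-sided exact permutation test cannot give a p under 0.1, and p-values were adjusted over the 3 pairs. COL1A2 exceeded COL1A1 by 18.9, 18.8 and 18.9 times under hypoxia and by 17.2, 17.7 and 17.1 times under normoxia. The deposited models hold 4423 bases of exon for COL1A2 and 4696 for COL1A1. As background, type I collagen normally holds more alpha 1 than alpha 2 chains. The groups of ratios did not overlap (exact permutation p = 0.1, adjusted p = 0.15), with COL1A1 over COL1A2 lower under hypoxia by a log2 difference of -0.12. COL4A1 over COL4A2 was 1.09, 1.23 and 1.14 under hypoxia and 1.32, 1.35 and 1.58 under normoxia, again without overlap (log2 difference -0.29, exact permutation p = 0.1, adjusted p = 0.15). COL11A1 over COL11A2 was 27.9, 24.1 and 29.6 under hypoxia and 26.2, 27.6 and 21.5 under normoxia, and these overlapped (log2 difference 0.12, exact permutation p = 0.5, adjusted p = 0.5). No pair passed a threshold of 0.05, which this design cannot reach.

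In sum, collagen chain mRNA was 0.398%, 0.405% and 0.380% of all TPM under hypoxia and 0.301%, 0.292% and 0.303% under normoxia, a ratio of 1.32. The ratio was 1.28 with mitochondrial genes left out of the total, and 1.30 for the share of exon reads. COL1A2 alone was 69.4% ± 1.16 of the summed collagen TPM under hypoxia and 70.6% ± 1.41 under normoxia (SD, n = 3 each). Without COL1A2 the sum was 1207 ± 83.5 TPM under hypoxia and 878 ± 44.7 TPM under normoxia. Fibrillar chains summed to 3220 ± 65.9 TPM under hypoxia and 2447 ± 64.8 TPM under normoxia, and basement membrane chains to 97.9 ± 4.95 TPM under hypoxia and 78.9 ± 1.53 TPM under normoxia. Transmembrane chains summed to 10.3 ± 0.87 TPM under hypoxia and 9.42 ± 0.65 TPM under normoxia, and the other types to 614 ± 59.1 TPM under hypoxia and 451 ± 33.3 TPM under normoxia (SD, n = 3 each). The 3 hypoxia libraries were above the 3 normoxia libraries in each of these sums but that of the transmembrane chains. These sums are given without a test.

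**Figure D5:**
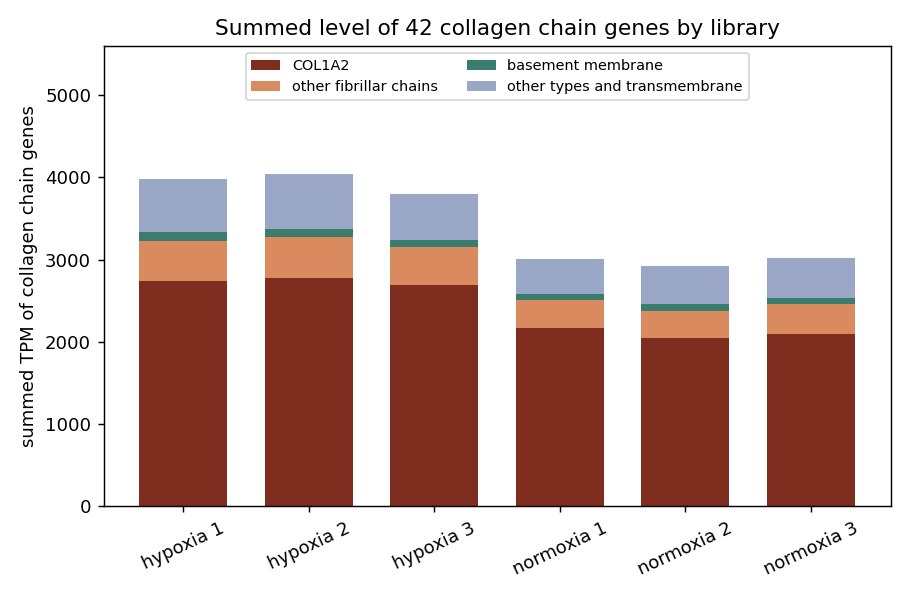
Summed TPM of the 42 collagen chain genes in each library, stacked by COL1A2, other fibrillar chains, basement membrane chains, and the other types together with transmembrane chains. COL1A2 fills most of every bar, and the hypoxia bars reach 3800 to 4047 TPM against 2920 to 3026 TPM for normoxia.

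Genes that make, export, bind, break down or regulate collagen were followed in 7 lists. Of 90 tested genes, 52 were higher and 14 lower (57.8% and 15.6%, where all tested genes gave 24.5% and 24.4%), with a median log2 change of 0.18. Several of these genes were among earlier results of these data, so the counts are not independent evidence of a direction. Among 18 genes of folding and modification, 9 were higher and 3 lower. The prolyl 3-hydroxylase gene P3H2 reached 333, 341 and 343 CPM under hypoxia and 124, 120 and 115 CPM under normoxia (1.505 ± 0.037), behind PLOD2 (2.40 ± 0.038) and P4HA1 (2.15 ± 0.040), which hydroxylate lysines and prolines of the chains. Of 8 export genes, 4 were higher and 1 lower. SAR1A, a GTPase of the transport vesicle coat, rose by 0.26 ± 0.042 and SEC23A by 0.25 ± 0.045, while the paralog SAR1B fell by 0.26 on the log2 scale. Among 13 genes of trimming and crosslinking, 8 were higher and 2 lower. The lysyl oxidases LOXL2 (1.76 ± 0.035) and LOX (1.11 ± 0.034), which crosslink fibrils, rose most, followed by the transglutaminase gene TGM2 (0.78 ± 0.24) at a low level.

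Of 10 collagen receptor genes, 6 were higher and 2 lower (60% and 20%, against 24.5% and 24.4% of all tested genes). CD44 rose by 0.69 ± 0.034, the endocytic receptor LRP1 by 0.55 ± 0.045 and the collagen-binding integrin subunit ITGA2 by 0.52 ± 0.057, whereas ITGA1, of the other common collagen-binding integrin, fell by 0.30 on the log2 scale. Breakdown genes went both ways, with 6 of 12 higher and 4 lower (50% and 33.3%). The collagenase gene MMP13 had 30.9, 36.1 and 32.5 CPM under hypoxia and 5.998, 6.03 and 6.33 CPM under normoxia (2.44 ± 0.090), and the membrane-bound collagenase gene MMP14 rose by 0.58 ± 0.034. CTSK, a lysosomal protease that cleaves the triple helix, fell to 241, 234 and 239 CPM under hypoxia, against 320, 325 and 317 CPM under normoxia (-0.43 ± 0.034). Of 14 matrix partners 9 were higher and 2 lower (64.3% and 14.3%), led by fibronectin, FN1 (0.82 ± 0.041), TGFBI (0.54 ± 0.038) and biglycan, BGN (0.46 ± 0.034).

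Of 15 regulators of collagen genes, 10 were higher and 0 lower by edgeR (66.7% and 0%, against 24.5% and 24.4% of all tested genes). At an unadjusted p under 0.05, 0 were lower, as was the case with DESeq2. The list holds growth factors and an inhibitor of their pathway, so the count gives no direction of regulation. The growth factor genes TGFB3 (0.99 ± 0.057) and TGFB2 (0.83 ± 0.045) and the pathway's inhibitor SMAD7 (0.84 ± 0.081) rose most. TGFB3 had 72.0, 73.0 and 70.1 CPM under hypoxia and 36.5, 33.3 and 39.1 CPM under normoxia. TGFB1 (-0.09) and the receptor gene TGFBR2 (-0.05), picked after their values were seen, were not called.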

How the data were processed

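RNA was measured in 3 hypoxia and 3 normoxia libraries of CMM10. Per the labels' protocols, polyadenylated RNA was sequenced paired-end after NEBNext Ultra II library preparation, a kit that does not mark strand. The deposited counts are, per the file headers, reads per gene, exon, exon-exon junction and intron, on CanFam3.1 per the submitters' processing notes; which aligner and counter were used is not given in those sources. TPM values were deposited too, per the file headers, and have the same sum in each library. Groups came from sample titles.

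Total gene reads were tested with edgeR 4.0.16 (filterByExpr by group with a minimum count of 10, TMM, robust quasi-likelihood fit, no covariates) over 15397 genes, with Benjamini-Hochberg adjustment and calls at 0.05. SEs of fold changes were derived from the F statistic. Alternatives used DESeq2 1.42.0 and limma 3.58.1 (R 4.3.3). Figures used matplotlib 3.10.9. The fit was tested on simulated data. Each library counted as 1 sample. Replicates differed by more than sampling noise (chi-square over its degrees of freedom between 4.12 and 12.7), which does not show whether they were separate cultures. Libraries held 23196647 to 28804337 gene reads.

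Every chain was accounted for; chains called with at least 1 TPM and the 12 of highest level were to be given by library, and others are added. Of each pathway list, up to 3 called genes of largest change with at least 1 CPM were named, and further ones were chosen after their values were seen. Members and lists were chosen with earlier results of these data known. No sequence was at hand, so none is shown.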

Additional observations from a re-analysis of the deposited data

How the results depend on the processing

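The 11 tested chains under 1 TPM rest on few exon reads at this depth. The 17 chain genes called higher kept that call under DESeq2 size factors, library size as the only scaling, the DESeq2 test, no filter, unique reads and each omission of 1 library (17 to 20 chains higher, 0 lower). Over these omissions, 3416 to 3598 of all genes were called higher and 3361 to 3585 lower. From exon reads 16 of the 17 stayed, from intron reads 12, and by limma on log2 TPM 15 of the 16 tested there, COL13A1 falling below the TPM filter. Unique reads gave 1 chain called lower, COL25A1. Intron reads gave 2173 genes lower in all, and 34 pathway genes higher and 7 lower. The sign turned under at least 1 setting for 13 chains. Of these, 7 were uncalled chains under 1 TPM: COL4A4, COL5A2, COL6A5, COL6A6, COL22A1, COL24A1 and COL25A1, where only COL25A1 from unique reads was called. The others turned without a call: COL9A2 (-0.0271 with library size only, -0.0528 from intron reads, -0.0174 with hypoxia replicate 3 and normoxia replicate 1 both left out, and -0.0807 to 0.12 over omissions of 1 library), COL4A5 (0.046 from exon reads, 0.0147 and 0.0154 by limma with pseudocounts of 0.5 and 0.1, and -0.0432 to 0.0083 over omissions), COL3A1 (0.11 from intron reads, 0.0256 with both libraries left out), COL7A1 (-0.18) and COL14A1 (-0.22) from intron reads, and COL13A1 (-0.70) from exon reads. The cause was not tested. With library size only, the median change of all genes moved to -0.07 and 38.8% of calls were higher, against 50.1% with TMM.

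Deviations from the group means, over all tested genes, correlated at -0.09, 0.03 and -0.05 between same-numbered libraries. Between differently numbered ones they correlated at -0.09 to 0.13, highest for hypoxia replicate 3 with normoxia replicate 1. Such deviations also carry counting noise, which weakens any shared part, so this check cannot exclude a pairing. With the replicate number as a block, 17 chains were higher and 0 lower, and 3769 and 3793 of all genes. The block cannot move the mean log2 differences of the chain ratios (-0.12, -0.29 and 0.12), which are the same by construction.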
